A study of Mus musculus with 2 samples.

Results

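The small leucine-rich proteoglycans were measured as 10 genes chosen by name, Dcn, Bgn, Lum, Fmod, Ogn, Prelp, Aspn, Omd, Kera and Podn, and all 10 were found among the 24421 gene symbols of the count table. The table holds 1 library of control skin and 1 library of stretched skin. Both came from the whole-layer back skin of wild type C57BL6/J mice, which the study's methods describe as 8-week-old females in telogen, the resting phase of the hair cycle. The stretched skin was stretched for 5 days by a device glued to the back, from an initial strain of 33% that was raised each day, the control skin was under no strain for the same time, and the skin under the device was discarded. How many mice stand behind each library is not given in the sources used here. With 1 library per condition no difference has a replicate check, no p-value is given, and every interval below covers counting error alone and compares these libraries, not the conditions.

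Small leucine-rich proteoglycans are secreted proteins of the extracellular matrix, built around a curved array of leucine-rich repeats, and many of them carry chains of dermatan, chondroitin or keratan sulfate. In skin they are made mainly by fibroblasts. They bind collagen fibrils and set their diameter and spacing, and several of them hold growth factors such as TGF-beta in the matrix. They are grouped by sequence into classes. Decorin (Dcn), biglycan (Bgn) and asporin (Aspn) belong to class I. Fibromodulin (Fmod), lumican (Lum), PRELP (Prelp), keratocan (Kera) and osteomodulin (Omd) belong to class II. Osteoglycin (Ogn) belongs to class III and podocan (Podn) to class V.

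The libraries held 14152379 counts in control skin against 11648655 in stretched skin, so that 3 counts correspond to 0.212 and 0.258 CPM, the count scaled to the library total. Ratios are those of CPM, and levels are given as FPKM, the CPM per kilobase of the gene's merged exons. Measured genes were the 16255 that exceeded 3 counts in either library, and over them the median log2 ratio of stretched to control skin was -0.12, with quartiles at -0.38 and 0.19. In such whole-tissue RNA, more cells of a type and more RNA per cell cannot be told apart.

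All 10 genes had a higher CPM in stretched skin, where 38.5% of the 16255 genes did. Fmod, Bgn and Podn differed most, by 5.29-fold, 2.93-fold and 2.39-fold. Dcn, the most abundant of them in control skin, differed least, by 1.04-fold. The median log2 ratio of the 10 genes was 0.69. Calls followed a rule adapted from the study's thresholds, with 1 added here to each FPKM. It keeps genes whose FPKM + 1 values have a product (EV) above 10 and calls a ratio of FPKM + 1 of at least 2 or at most 0.5, and 9 of the genes could be called. Of these, 3 were called higher, against 2.61% of the 10908 genes that passed, and 0 were called lower, against 2.43%. With nothing added to the FPKM, the same 3 genes were called higher and 0 lower, against 2.94% and 2.85% of 9681 genes. No test lies behind these calls. The counting interval of the ratio was wholly above 1-fold for 8 of the 10 genes, against 18.1% of the 16255 genes, and wholly below it for 0, against 33.5%. Among the 12740 genes whose counts summed to at least 100, which include all of the proteoglycan genes but Kera, these shares were 20.0% and 40.2%.

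**Figure D1:**
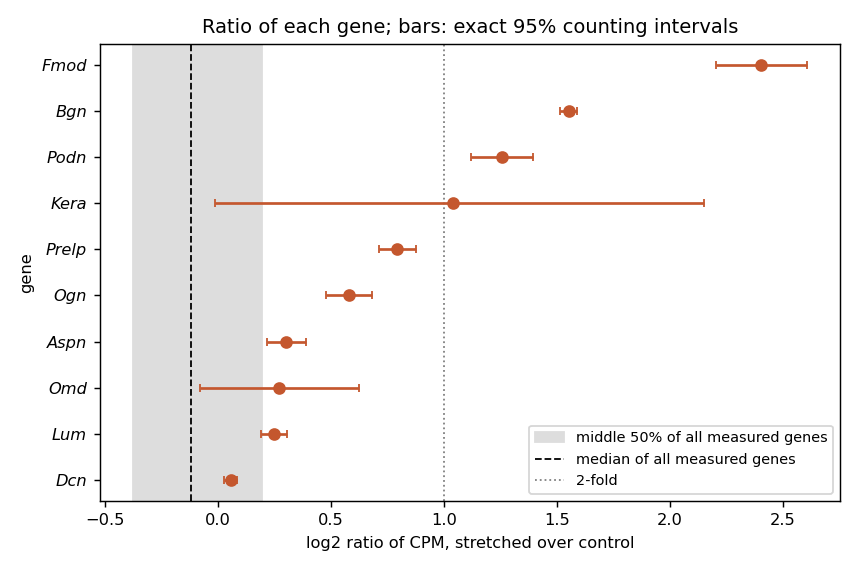
Log2 ratio of CPM in stretched over control skin for the 10 genes (points, 1 library per condition) with exact 95% counting intervals (bars); the grey band spans the quartiles of the 16255 measured genes and the dashed line is their median of -0.12. The values run from 0.06 for Dcn to 2.40 for Fmod, and the intervals of Fmod, Bgn and Podn lie wholly to the right of the 2-fold line.

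Fibromodulin, which binds type I collagen and takes part in fibril assembly, had the largest ratio. Fmod was counted 254 times in the control library and 1106 times in the stretched library. Its level was 5.43 FPKM (interval 4.78 to 6.14) and 28.7 FPKM (27.1 to 30.5). The log2 ratio was 2.40 (interval 2.21 to 2.61), the 107th highest of the 16255 genes. It moved from the 8th to the 7th most abundant of the 10 genes.

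Biglycan, the class I relative of decorin, binds collagen, and its soluble form is a ligand of the toll-like receptors TLR2 and TLR4. Bgn had 8389 counts without strain and 20235 with strain, or 97.2 FPKM (95.1 to 99.3) and 285 FPKM (281 to 289). The log2 ratio was 1.55 (1.51 to 1.59). Bgn made up 71.3% of the rise in the summed CPM of the 10 genes, and no other gene made up more than 6.56%.

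Podocan, a collagen-binding protein known as an inhibitor of smooth muscle cell growth, had 650 counts in the control and 1279 counts in the stretched library. Its level was 10.8 FPKM (9.95 to 11.6) against 25.7 FPKM (24.3 to 27.2), a log2 ratio of 1.26 (1.12 to 1.40). Podn was thus the third gene past the 2-fold threshold, and Prelp came nearest to it from below. PRELP, which binds both collagen and heparan sulfate and is held to anchor basement membranes to connective tissue, had 2036 and 2902 counts, or 39.8 FPKM (38.1 to 41.6) and 68.9 FPKM (66.4 to 71.5). Its fold change was 1.73 (1.64 to 1.83). Opposite to Prelp lies Gm15851, whose exons cover 9.68% of the exonic bases of Prelp, and how the counting treated strand is not given in the sources used here.

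Osteoglycin, also called mimecan, followed with 1415 and 1742 counts, or 39.0 FPKM (37.0 to 41.0) and 58.3 FPKM (55.6 to 61.1), a log2 ratio of 0.58 (0.48 to 0.68). Asporin, a TGF-beta-binding protein with a stretch rich in aspartate, had 2270 and 2304 counts, or 68.1 FPKM (65.4 to 71.0) and 84.0 FPKM (80.6 to 87.5). The log2 ratio of Aspn was 0.30 (0.22 to 0.39). The raw counts of Aspn were nearly equal, and its ratio comes from the smaller total of the stretched library.

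Lumican and decorin, the fibril regulators whose loss weakens mouse skin, lay at the low end. Lum had 4905 and 4798 counts, or 142 FPKM (138 to 146) and 168 FPKM (164 to 173), a log2 ratio of 0.25 (0.19 to 0.31). Dcn had 21408 and 18319 counts, or 259 FPKM (256 to 263) and 269 FPKM (265 to 273), a log2 ratio of 0.06 (0.03 to 0.08). Dcn was thus nearly level by library totals, where the median of all genes was -0.12.

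Osteomodulin and keratocan, best known from bone and cornea, were the rarest. Omd had 137 and 136 counts, or 4.30 FPKM (3.61 to 5.09) and 5.19 FPKM (4.36 to 6.14), and the interval of its log2 ratio of 0.27 included 0 (-0.083 to 0.62). Kera had 13 and 22 counts, or 0.403 FPKM (0.215 to 0.689) and 0.828 FPKM (0.519 to 1.25). Its log2 ratio of 1.04 had an interval from -0.013 to 2.15, and its EV of 2.56 left it outside the calls. Differences in Omd and Kera were not detectable at this depth.

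**Figure D2:**
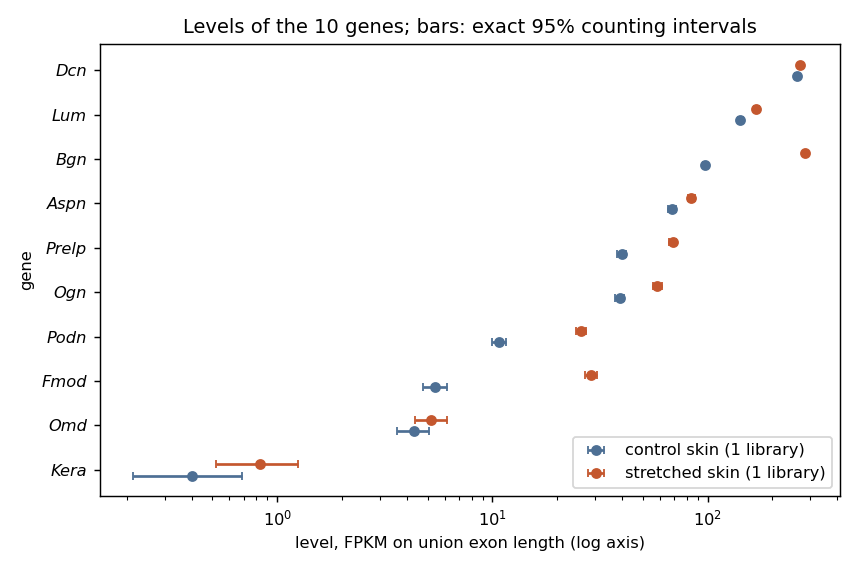
Level of each gene in FPKM (log axis, merged exon length) in the control library and the stretched library, with exact 95% counting intervals; genes are in the order of their level in control skin. Bgn moves from 97.2 to 285 FPKM, past Lum and Dcn, while Dcn stands at 259 and 269 FPKM.

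When the genes were ordered by their log2 ratio, 5 of the 9 neighbouring pairs differed beyond counting error, by the exact conditional interval of their ratio. Fmod stood 0.85 above Bgn (interval 0.65 to 1.06), and Bgn stood 0.29 above Podn (0.15 to 0.44). The 4 pairs that could not be told apart all involved Kera or Omd. Ordered by level in control skin, 8 of 9 neighbours differed beyond counting error, and Prelp and Ogn did not (difference 0.030 in log2 FPKM, interval -0.068 to 0.13). In stretched skin all 9 neighbouring pairs did.

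The 250 bases that precede the RefSeq start site on GRCm38.p6, the assembly behind mm10, are shown for the 3 genes called higher and, for contrast, for Aspn. A window was found for 8 of the 10 genes. Capitals mark matches on either strand to the letters GGGCGG (the GC box), TATAAA (the TATA box), GGAATG (bound by TEAD factors), TGANTCA (bound by AP-1) or GTCTAGAC (bound by SMAD factors), or to the CArG box. These motifs were chosen after the values were seen, and a match describes the letters and not a bound site.
Fmod, chr1:134037004-134037253, plus strand: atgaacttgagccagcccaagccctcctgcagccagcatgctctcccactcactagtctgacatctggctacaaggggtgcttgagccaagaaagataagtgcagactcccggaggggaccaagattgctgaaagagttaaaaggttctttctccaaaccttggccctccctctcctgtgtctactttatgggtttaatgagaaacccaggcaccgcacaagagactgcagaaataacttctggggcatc
Bgn, chrX:73483351-73483600, plus strand: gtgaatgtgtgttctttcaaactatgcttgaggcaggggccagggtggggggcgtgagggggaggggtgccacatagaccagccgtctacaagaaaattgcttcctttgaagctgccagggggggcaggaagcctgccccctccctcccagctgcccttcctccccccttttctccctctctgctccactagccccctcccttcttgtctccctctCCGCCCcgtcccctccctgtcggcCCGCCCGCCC
Podn, chr4:108031955-108032204, minus strand: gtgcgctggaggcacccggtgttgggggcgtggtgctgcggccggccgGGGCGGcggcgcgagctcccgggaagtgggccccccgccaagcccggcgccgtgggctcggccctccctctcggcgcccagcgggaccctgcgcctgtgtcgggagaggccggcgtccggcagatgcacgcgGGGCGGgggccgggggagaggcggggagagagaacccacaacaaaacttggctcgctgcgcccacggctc
Aspn, chr13:49544193-49544442, plus strand: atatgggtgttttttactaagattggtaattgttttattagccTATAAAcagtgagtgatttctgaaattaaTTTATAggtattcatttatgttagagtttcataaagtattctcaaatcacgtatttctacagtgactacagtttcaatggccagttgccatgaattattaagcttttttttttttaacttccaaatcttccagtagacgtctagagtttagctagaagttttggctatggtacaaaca

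The windows of Bgn and Podn are rich in G and C (64.4% and 78.0%, against a median of 52.4% over 32851 windows). The window of Fmod is close to that median (51.2%), and the window of Aspn is poor in G and C (30.0%). Of the genes not shown, Prelp had 55.6%, Kera 42.4%, Ogn 42.0% and Omd 38.4%, so Aspn had the lowest share. Bgn held 3 GC boxes, the last 2 of which overlap, and Podn held 2 at the first of its 2 RefSeq start sites and 0 at the other. A GC box was present in 32.7% of all windows. The window of Aspn held 2 TATA boxes, which end 202 and 173 bases before the start, and that of Fmod held 0 matches to any of the motifs, while 12.4% of all windows held a TATA box. The AP-1, SMAD and CArG letters, present in 6.75%, 0.17% and 1.47% of all windows, had 0 matches in the windows of the 8 genes, and the TEAD letters (12.6% of all windows) matched once, in Ogn. The 3 genes called higher therefore share no motif of those searched.

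Most of the genes lie in clusters, and the ratios within a cluster could lie far apart or close together. On chromosome 1 of mm10, Prelp (chr1:133910304-133921414) lies beside Fmod (chr1:134037254-134048277), and their log2 ratios were 0.79 and 2.40. The eye gene Optc (opticin), next to Prelp, had 7 and 3 counts. On chromosome 10, Dcn (chr10:97479609-97518143), Lum (chr10:97565128-97572703) and Kera (chr10:97606879-97613692) stand in a row with 0.06, 0.25 and 1.04. Kera had 13 and 22 counts, an interval from -0.013 to 2.15, and could not be told apart from Dcn. Epyc (epiphycan, a cartilage gene) follows with 2 and 3 counts. On chromosome 13, Aspn (chr13:49544443-49567565), Omd (chr13:49582462-49592822) and Ogn (chr13:49608046-49624501) had 0.30, 0.27 and 0.58. Ecm2, the family relative next to Aspn, had 976 and 793 counts and a log2 ratio of -0.02 (interval -0.16 to 0.12). Cenpp runs through this cluster on the opposite strand with 41 and 33 counts, and its exons cover 0.297% of the exonic bases of Aspn. Bgn (chrX:73483602-73495933) and Podn (chr4:108014791-108096445) lie apart from the clusters. The window printed above for Podn lies inside this annotated span and not at its upstream end.

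As a pool, the 10 genes took 0.293% of all counts in control skin (exact interval 0.290 to 0.296) and 0.454% in stretched skin (0.450 to 0.458), which is 1.55-fold higher. Without Dcn the ratio was 2.09-fold, since Dcn alone held 51.6% of the pool's counts in the control library and 34.7% in the stretched one. Without both Dcn and Bgn it was 1.49-fold.

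Within the pool, the shares of Dcn and Bgn differed most, in opposite directions. Per kilobase of merged exons, Dcn held 38.9% of the summed FPKM without strain and 27.1% with it, and Bgn held 14.6% and 28.7%. Lum held 21.3% and 16.9%, and Fmod 0.816% and 2.89%. The FPKM of Bgn was 0.375 times that of Dcn in control skin and 1.06 times after stretch, where Bgn became the most abundant of the 10. The merged exons of Bgn (6099 bases) are much longer than its longest transcript (2666 bases), and with the longest transcript as length these ratios were 0.690 and 1.94. Bgn then came second in control skin, ahead of Lum, and first again in stretched skin, with 25.9% and 45.4% of the pool. The place of Bgn against Lum in control skin thus turned on the length, and its place above Dcn in stretched skin did not.

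**Figure D3:**
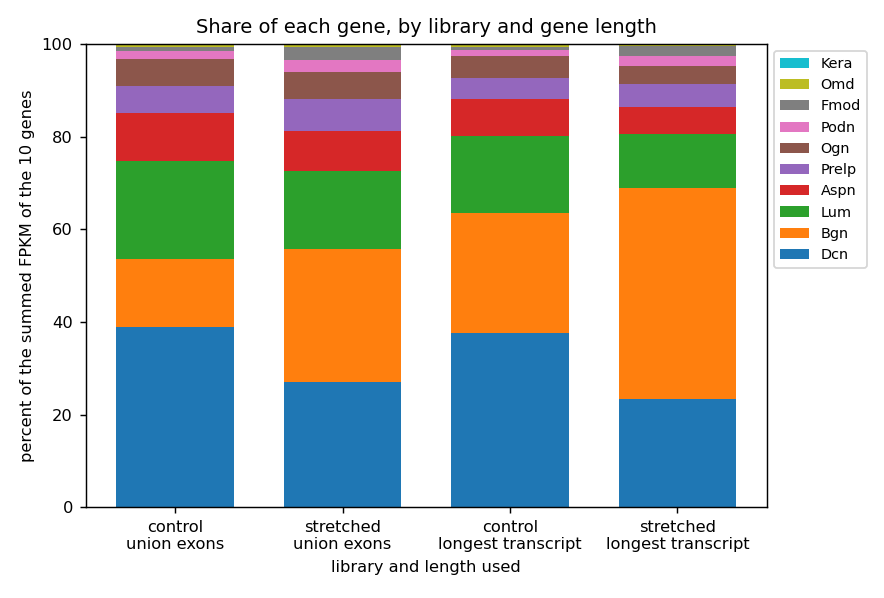
Percent of the summed FPKM of the 10 genes taken by each gene in the control and stretched libraries, with the length of the merged exons (left pair of bars) or of the longest transcript (right pair). Dcn shrinks from 38.9% to 27.1% and Bgn grows from 14.6% to 28.7% with merged exons, and from 37.6% to 23.4% and 25.9% to 45.4% with the longest transcript.

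Ratios between genes within a library do not depend on how the libraries were scaled. Dcn had the smallest ratio of these genes, so none of the others could lie below it by this measure. Relative to Dcn, 7 of the other 9 genes were higher in stretched skin beyond counting error, and Omd and Kera could not be told apart from it. The count of Bgn was 0.392 times that of Dcn in control skin and 1.10 times that of Dcn with stretch, a log2 difference of 1.5 (interval 1.45 to 1.54). Fmod differed from Dcn by 2.35 (2.15 to 2.55) and Podn by 1.20 (1.06 to 1.34), whereas Lum differed by 0.19 (0.13 to 0.26).

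The collagens that these proteoglycans bind were higher too. All 11 collagen genes of types I, III, V, VI, XII and XIV had intervals above 0, with log2 ratios from 0.37 to 1.0 and a median of 0.80. Of these 1 was called higher, Col1a1, the main chain of type I collagen, with 168121 and 277385 counts (log2 ratio 1.0, interval 0.99 to 1.01). That interval includes the 2-fold threshold. Other scalings of the libraries add 0.064 to 0.111 to every log2 ratio, and the collagen calls were not recomputed with them. By their ratios alone, 4 of the 10 proteoglycan genes lay below all of the collagens (Aspn, Omd, Lum and Dcn) and 4 above all of them (Fmod, Bgn, Podn and Kera), but the intervals of Kera, Omd, Aspn and Lum overlapped those of at least 1 collagen. Relative to Col1a1, the count of Dcn was 0.127 in control skin and 0.0660 after stretch, a log2 difference of -0.95 (interval -0.98 to -0.92). Lum differed from Col1a1 by -0.75 (-0.81 to -0.70), Aspn by -0.70 (-0.79 to -0.62) and Omd by -0.73 (-1.09 to -0.38). Ogn lay at -0.42 (-0.52 to -0.32) and Prelp at -0.21 (-0.29 to -0.13). On the other side, Fmod stood at 1.40 (1.20 to 1.60), Bgn at 0.55 (0.51 to 0.59) and Podn at 0.25 (0.12 to 0.39). Kera, at 0.037 (-1.02 to 1.15), could not be placed. The genes thus fell on both sides of Col1a1, with 3 higher and 6 lower relative to it.

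**Figure D4:**
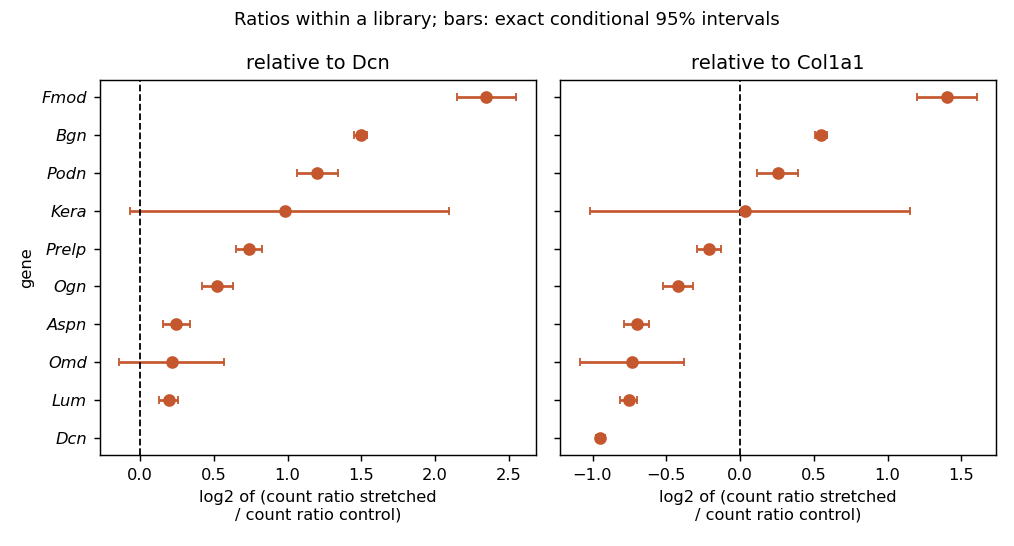
Log2 of the count ratio to Dcn (left) and to Col1a1 (right) in stretched skin over that in control skin, with exact conditional 95% intervals; the dashed line marks an equal ratio in both libraries. Relative to Dcn, Fmod stands at 2.35 and Bgn at 1.5, and relative to Col1a1, Dcn stands at -0.95 and Fmod at 1.40.

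Genes that act on or beside the small leucine-rich proteoglycans were measured as lists. Of the 12 genes for proteases that cleave them and for enhancers of such cleavage, 11 were measured, with a median log2 ratio of 0.70 and 9 intervals above 0 and 0 below. Mmp3 (stromelysin-1), a matrix metalloproteinase that cleaves several proteoglycans, was called higher, with 460 and 1604 counts (log2 ratio 2.08, interval 1.93 to 2.24). Of the 15 genes of the TGF-beta axis, 10 intervals lay above 0 and 2 below, around a median of 0.65. Ltbp2, of the family of latent TGF-beta-binding proteins, was called higher, with 438 and 927 counts (log2 ratio 1.36, interval 1.20 to 1.53). Of 11 genes for receptors of these proteoglycans, 10 were measured, and 5 intervals lay above 0 and 4 below (median 0.33). Cd14, the co-receptor through which biglycan engages toll-like receptors, had 116 and 327 counts (1.78, interval 1.47 to 2.09), and Tlr2 had 98 and 207 (1.36, 1.01 to 1.72). Both were called higher, and both are also expressed by macrophages.

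The enzymes that build and sulfate the sugar chains had ratios on both sides of 0. Of 20 genes of chondroitin and dermatan sulfate synthesis, 0 were called, 6 intervals lay above 0 and 5 below, and the median was -0.05, near that of all genes (0.05 to 0.06 with 3 other scalings). The genes of this list with the most counts were Fam20b, the xylose kinase of the linkage region, with 1595 and 1067 counts (log2 ratio -0.30, interval -0.41 to -0.19), and Chpf, a chondroitin polymerizing factor, with 894 and 1382 (0.91, 0.79 to 1.03). Of 9 genes of keratan sulfate synthesis and tyrosine sulfation, 0 were called, with 3 intervals above 0, 1 below and a median of 0.03. B4galt1, a galactosyltransferase, had 2348 and 2249 counts (0.22, 0.13 to 0.30), and Tpst1, a tyrosine sulfotransferase, had 616 and 516 (0.03, -0.15 to 0.20).

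**Figure D5:**
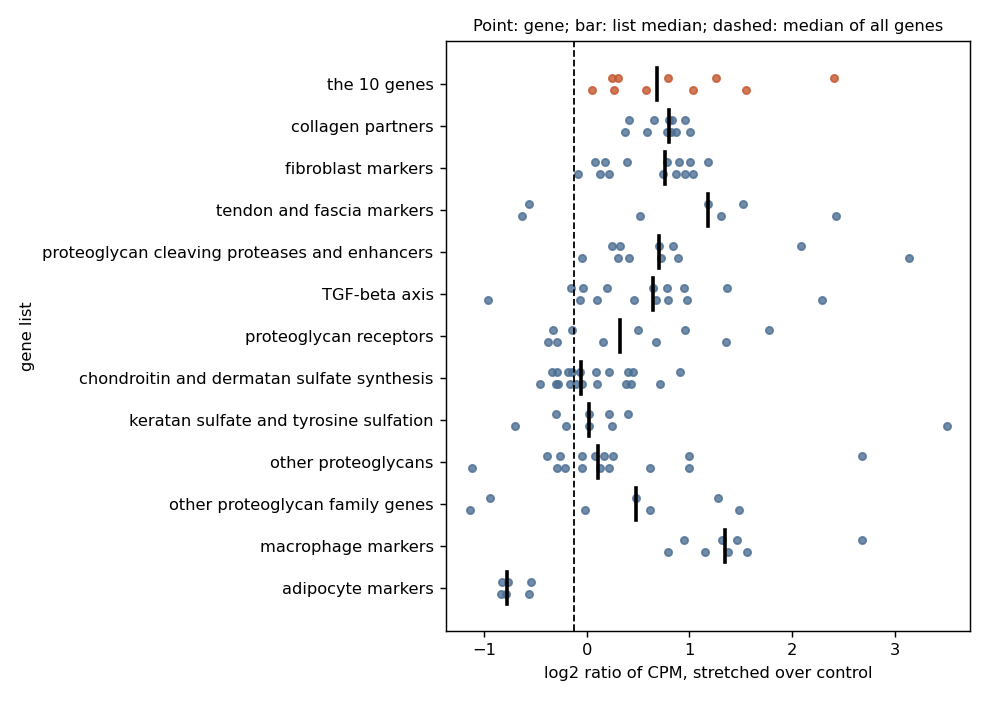
Log2 ratio of CPM in stretched over control skin for each measured gene (point) of the 10 proteoglycan genes and of 12 other lists, with the list median (black bar) and the median of all measured genes (dashed line). The median of the 10 genes is 0.69, that of the collagens 0.80 and that of the fibroblast markers, 3 of which are collagens of that list, 0.76 (0.39 without them), and that of chondroitin and dermatan sulfate synthesis (-0.05) lies near all genes.

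Markers of the cell types in the skin also differed between the libraries, and their part in the ratios of the proteoglycan genes was not tested. The skin was rich in fibroblast markers, of which 14 of 14 were measured, at a summed 41683 CPM without and 79512 CPM with strain. Their log2 ratios ran from -0.09 to 1.18 with a median of 0.76, and 12 intervals lay above 0 and 0 below. The list holds 3 collagens that also stand in the collagen list, and the 11 other markers had a median of 0.39, summed to 2738 and 4584 CPM, and had 9 intervals above 0 and 0 below. Called higher were Vim (vimentin, log2 ratio 1.18), Pi16, a marker of a fibroblast subset (1.04), and Col1a1. The 7 tendon and fascia markers summed to 585 and 1937 CPM. Of these, 4 intervals lay above 0 and 2 below, and Thbs4 (thrombospondin-4) had 1973 and 8761 counts (log2 ratio 2.43, interval 2.36 to 2.50), Cilp 5552 and 13137 (1.52, 1.48 to 1.57) and Scx, the tendon transcription factor scleraxis, 104 and 212 (1.31, 0.96 to 1.66). All 3 were called higher. Tnmd (tenomodulin), a marker of mature tendon, had 482 and 269 counts (-0.56, interval -0.78 to -0.34) and Cilp2 had 103 and 55 (-0.62, -1.12 to -0.14), and both are named outside the rule, after their values were seen. Of the 7 cartilage and bone markers, Ibsp and Bglap were at 0 in both libraries, 0 intervals lay above 0 and 2 below, and the list summed to 92.1 and 70.0 CPM.

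Among the other cell types, 8 of 8 macrophage markers had intervals above 0 (740 and 1759 CPM summed) and 6 of 6 adipocyte markers had intervals below 0 (1327 and 847 CPM). Smooth muscle and pericyte markers (6 genes, 700 and 828 CPM) had 4 intervals above 0 and 1 below, and endothelial markers (5 genes, 176 and 244 CPM) had 3 above 0 and 0 below. Skeletal muscle markers (9 genes, 25483 and 19987 CPM) had 3 above 0 and 6 below, and their log2 ratios ran from -4.57 to 1.46. Keratinocyte markers (6 genes, 14839 and 15743 CPM) had 4 above 0 and 1 below, and all 4 proliferation markers (474 and 225 CPM) were below 0. Called higher were 6 macrophage and 3 skeletal muscle markers, and called lower were 2 skeletal muscle markers and 1 proliferation marker. Over the 10908 genes that passed EV, 2.61% were called higher and 2.43% lower. The calls of these lists did not differ with nothing added to the FPKM, except that 3 proliferation markers were called lower in place of 1.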

How the data were processed

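The authors aligned filtered single-end reads of 76 bases to mm10 with TopHat2, and deposited reads per gene symbol as raw counts; the counting program, its annotation and its use of strand are not given in the sources used here. From the counts, CPM was computed with library totals and FPKM with merged exons of GENCODE M21 (23384 symbols matched by name, 670 by synonym, 367 unmatched). Counts of 3 or fewer were set to 3 in ratios. Intervals are exact 95% Clopper-Pearson or conditional intervals. Stretches of 76 bases shared with other genes covered 7.75% of Prelp, 3.33% of Omd and 0 bases of the other 8 members. Named in the text are the members, cluster neighbours, and genes whose exons overlap those of a member. Of each list, genes called with at least 100 counts (at most 4), or else the 2 with the most counts, are named (exceptions are marked). This rule was not applied to markers of cartilage and bone, macrophages, adipocytes, smooth muscle and pericytes, endothelium, skeletal muscle, keratinocytes or proliferation. 1 gene that this rule names is not reported here. Members, lists and tests were chosen with earlier results of these data known. Alternatives were scaling by DESeq2 1.42.0 (median of ratios) or edgeR 4.0.16 (TMM, upper quartile), other totals, pseudocounts (none added to the FPKM, chosen after seeing the data), EV and fold thresholds, and lengths. Scripts (Python 3.11.15, scipy 1.17.1, R 4.3.3) were tested on simulated data.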

Additional observations from a re-analysis of the deposited data

How the results depend on the processing

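The median log2 ratio of the 10 genes (0.69) was 0.80 when scaled by median of ratios, 0.79 by TMM, 0.79 by the upper quartile, and 0.81 relative to the median of all genes, a scaling chosen after seeing the data. It was 0.58 with 1 CPM added and 0.58 for genes with at least 100 counts, which leaves out Kera. The log2 ratio of the summed share (0.63) was 0.74, 0.73 and 0.73 with the same 3 scalings, 0.69 when the 50 most counted genes were left out of the totals, and 1.06 without Dcn. Fmod, Bgn and Podn were the genes called higher, and 0 were called lower, under 11 of the 12 other settings of the calls. With a fold of at least 1.5, Prelp joined them (4 genes, against 6.23% of all genes). No log2 ratio of a single gene changed sign in 50 recomputed values, but none could have. All were above 0, the other scalings raised each of them, and 1 CPM added only draws a ratio towards 0. Of 55 values of other lists, 4 changed sign. The skeletal muscle median went from -0.11 to 0.0041 with median of ratios, and the chondroitin and dermatan sulfate synthesis median from -0.05 to 0.05 with TMM, 0.06 with median of ratios and 0.05 with the upper quartile. No paired analysis was possible because each condition has 1 library, so none could be left out either. Depth limits Kera and Omd most.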

Other observations

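Proteoglycans outside the family had ratios on both sides of 0. Of 17 genes for syndecans, glypicans, hyalectans and other proteoglycans, 16 were measured, with a median log2 ratio of 0.11, 8 intervals above 0 and 4 below. Prg4, which encodes the surface lubricant lubricin, was the gene called higher, with 234 and 1231 counts (log2 ratio 2.68, interval 2.47 to 2.88). Acan, which encodes aggrecan and is named after its value was seen, had 234 and 89 counts (-1.11, interval -1.48 to -0.76). Of the 9 other genes of the small leucine-rich family, 7 were measured, 0 were called, 3 intervals lay above 0 and 0 below, and the median was 0.48. Tsku, which encodes the secreted protein tsukushi, had 303 and 347 counts (0.48, 0.25 to 0.70), and Ecm2 had the most counts.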
